A study of Bos taurus with 53 samples.

Results

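At day 14 the bovine conceptus consists of the embryonic disc and the much larger extraembryonic membranes around it. The paired tissues of 10 embryos were compared here, 20 libraries of the 53 in the series and 10 of its 23 embryos with both tissues sequenced. All came from oocytes matured in vitro in BASAL medium, with 0.45% ethanol as the solvent of 21 µM oleic acid, 23 µM palmitic acid and 28 µM stearic acid. The oocytes were fertilised and cultured in vitro, the blastocysts were placed in recipient cows on day 7.7, and the conceptuses were flushed out on day 14, scored as ovoid or tubular and cut into disc (ED) and extraembryonic tissue (EX). The 10 embryos were 5 males and 5 females, 3 ovoid and 7 tubular, from cows 07 (2 embryos), 12 (3), 13 (1), 66 (1) and 813 (3). Pairs were formed by cow and embryo number from 12 BASAL embryos, and 2 were dropped by rule. The disc of cow 72 embryo 2 held 6814 reads, under the minimum of 10000, and the disc of cow 66 embryo 2 held 0 reads of NNAT, an imprinted gene of the disc, among 2500029. The 10 discs kept held 373 to 2855 NNAT reads, and the smallest library kept held 1341534 reads, so NNAT is given here as a description and not as a result.

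The disc is built of the epiblast, from which the body of the calf arises, over a layer of hypoblast. In cattle the polar trophoblast above the epiblast is lost around this time, and the remaining trophoblast elongates into a tube lined by extraembryonic hypoblast, which later becomes the yolk sac. Trophoblast secretes interferon tau, the ruminant signal that maintains the corpus luteum, while the disc prepares for gastrulation under FGF, WNT, NODAL and BMP signals.

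Exon reads per library ran from 1341534 to 6167850 in discs (median 2451272.5) and from 3101968 to 11617942 in extraembryonic tissue (median 9041587.5). Levels are given as CPM, reads per 1000000 reads of the library after trimmed-mean (TMM) scaling, and differences as log2 fold changes of extraembryonic tissue over disc in edgeR's quasi-likelihood test with the embryo as a block. Disc RNA was isolated with a micro kit and extraembryonic RNA with a mini kit, and disc libraries carried the letters A or B and extraembryonic libraries C or D, so tissue, kit and library letter cannot be told apart. Discs ran on lanes 1, 2 and 3 and extraembryonic libraries on lanes 3, 4 and 8. Within the 6 pairs of letters A and D 1896 genes were called, and within the 4 pairs of letters B and C 2600, against 3856 over all pairs. The intron share of reads was lower in extraembryonic tissue in 10 of 10 pairs (7.21% ± 0.679 against 8.89% ± 0.530, SD, n = 10). That difference of -1.68 percentage points had an exact sign-flip p of 0.00195, two-sided, the smallest that 10 pairs allow, and its part in the differences between genes was not tested. In bulk tissue, fewer cells of a type and less RNA per cell cannot be told apart.

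A pair of libraries stood apart. In the disc of cow 66 embryo 1 the summed level of the epiblast list was 143 CPM, the lowest of the discs, against 145 CPM in the extraembryonic tissue of the same embryo. In the extraembryonic library of cow 13 embryo 1 mitochondrial genes made up 20.9% of exon reads, against 2.93% to 11.1% in the other 9. Its TMM factor was 0.619, against 0.902 to 1.07 in those 9, which raises its scaled CPM. Without these 2 embryos 5364 genes were called, and 974 of them past 2-fold.

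The tissues differed in many genes, and the large differences went nearly all one way. Of 9983 genes tested, 1694 were higher in extraembryonic tissue (17.0%) and 2162 lower (21.7%) at an adjusted p under 0.05. Asked for a change over 2-fold with edgeR's glmTreat test, 16 genes were higher (0.16%) and 590 lower (5.91%). The median log2 fold change of the genes called lower was -0.95, and 213 of them lay below -3. That of the genes called higher was 0.51, and 0 lay above 3, the highest being 2.64. At most 3 reads over all 10 extraembryonic libraries were counted for 21 tested genes, while 0 tested genes had so few in the discs. The CPM of the 10 discs and 10 extraembryonic libraries did not overlap for 461 genes (4.62%), 396 of them lower and 65 higher in extraembryonic tissue. Without cow 66 embryo 1 and cow 13 embryo 1 the genes past 2-fold numbered 36 higher and 938 lower.

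**Figure D1:**
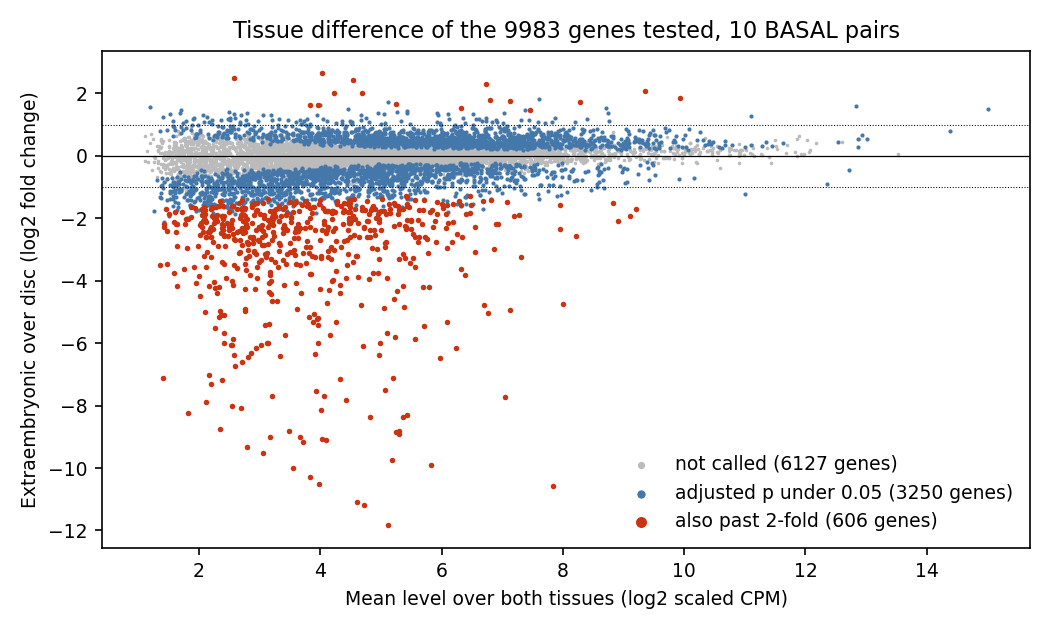
Each point is a gene tested in the 10 pairs, with its mean level over both tissues (log2 scaled CPM) on the horizontal axis and its log2 fold change of extraembryonic tissue over disc on the vertical axis; dotted lines mark 2-fold. The 590 red points below 0 reach -11.83 and the 16 above 0 reach 2.64, and the lowest points are genes with few or 0 reads in extraembryonic tissue, whose fitted fold depends on the smoothing of 0 counts.

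Scaling bears on the small differences. Scaled by library size alone, the median log2 fold change of all tested genes moved from 0.00 to -0.20, and the genes called became 715 higher and 2868 lower. The share of calls that were higher in extraembryonic tissue was 43.9% with TMM scaling and 20.0% by library size alone. Differences under about this shift are therefore given relative to the TMM-scaled median. Counts and medians of lists by library size alone are to be set against these 715 and 2868 genes and the median of -0.20.

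Markers of the disc were read in both tissues. The rule had already dropped a disc with 0 NNAT reads, so they do not check the labels independently. Of the 18 genes in the epiblast list, 10 were in the table and 9 were tested, and all 9 were lower in extraembryonic tissue (7 past 2-fold, median log2 fold change -2.59, against 0.00 over all genes tested). A gene passed the filter on low counts if it was expressed in either tissue, so a member seen only in discs passed only where it was high. The same holds for the lists below. Counts of called members in every list are to be set against the shares of all genes tested. Those were 17.0% higher and 21.7% lower, and past 2-fold 0.16% higher and 5.91% lower. SOX2, a core pluripotency factor, measured 3.94 to 29.5 CPM in the discs (median 14.6) and 0 in extraembryonic tissue. With 0 of its reads in any of the 10 extraembryonic libraries, its level pooled over discs was at least 492-fold higher than the 3 pooled reads taken as the floor. PRDM14, a regulator of pluripotency and germ cells, measured 2.75 to 14.6 CPM in the discs (median 9.06) and 0 to 0.195 CPM in extraembryonic tissue (median 0). Its 3 extraembryonic reads gave a disc level 286-fold higher (95% counting interval 96.8 to 1394). Neither gene's groups overlapped, and the lowest PRDM14 disc was that of cow 66 embryo 1. SALL4, another pluripotency factor, was lower by less and was detected in all extraembryonic libraries (76.7 to 168 CPM in the discs (median 121) and 10.98 to 90.1 CPM in extraembryonic tissue (median 51.7); log2 fold change -1.31, SE 0.26, adjusted p = 0.00103). EOMES, a T-box factor of streak and mesoderm, had 2 reads over all extraembryonic libraries against 782 in discs.

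Most of the tested hypoblast genes were higher in the disc, while the list's summed level was not. Hypoblast also lines the extraembryonic membranes. Of the 14 genes listed, 13 were in the table and 10 were tested; 8 were lower and 1 was higher in extraembryonic tissue, with a median log2 fold change of -1.81. GATA4, a zinc-finger factor of hypoblast, measured 24.8 to 149.7 CPM in the discs (median 89.4) and 9.88 to 35.3 CPM in extraembryonic tissue (median 16.9) (log2 fold change -2.19, SE 0.24, adjusted p = 7.66e-06). Its values overlapped between tissues, and the disc of cow 66 embryo 1 fell among the extraembryonic ones. FLRT3, a membrane protein of anterior visceral endoderm, differed by -1.43 on the log2 scale (SE 0.15, adjusted p = 3.22e-06). DAB2, an adaptor for endocytic receptors, went the other way and was higher in extraembryonic tissue in 9 of 10 pairs (416 to 894 CPM in the discs (median 563) and 702 to 1321 CPM in extraembryonic tissue (median 1062); log2 fold change 0.89, SE 0.15, adjusted p = 3.68e-04). The summed level of the whole list was higher in extraembryonic tissue in 7 of 10 pairs (1074 to 1614 CPM in discs and 1101 to 1642 CPM in extraembryonic tissue), against the direction of most members.

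Most of the tested yolk sac genes were likewise higher in the disc, while the list's summed level was not. Of the 23 genes listed, 20 were in the table and 7 were tested, 6 of which were lower and 0 higher in extraembryonic tissue (median -1.78). The log2 fold change of 1 tested member was above 0, and with DESeq2 1 member was called higher and 6 lower. MTTP, which loads lipid onto apolipoprotein B, measured 14.6 to 118 CPM in the discs (median 90.8) and 2.63 to 13.6 CPM in extraembryonic tissue (median 7.11) (log2 fold change -3.56, SE 0.29, adjusted p = 3.54e-07). Its groups did not overlap, with the lowest disc again that of cow 66 embryo 1. The apolipoprotein genes APOA2 and APOE had log2 fold changes of -4.20 (adjusted p = 6.34e-07) and -1.94 (adjusted p = 1.49e-05), each lower in 10 of 10 pairs. RBP4, the plasma carrier of retinol, was lower in 9 of 10 pairs (log2 fold change -1.56, SE 0.24, adjusted p = 1.67e-04). The summed level of the whole list was nonetheless higher in extraembryonic tissue in 7 of 10 pairs (4788 to 8108 CPM in discs and 2977 to 8573 CPM in extraembryonic tissue), so the sum and the counts of members differed in direction.

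Markers of leukocytes and of uterine epithelium were low or absent. PTPRC, C1QB and C1QC, which mark leukocytes and macrophages, had 0 reads in all 20 libraries. The summed level of 13 maternal immune genes was 9.84 to 29.8 CPM in discs and 4.23 to 29.8 CPM in extraembryonic tissue. Uterine epithelial genes summed to at most 1.85 CPM in any library, and 3 of the 5 in the table had 0 reads in both tissues. Blood and endothelial genes summed to 57.9 to 112 CPM in discs and 26.7 to 61.7 CPM in extraembryonic tissue and were lower in extraembryonic tissue in 10 of 10 pairs. Their source and their part in other differences were not tested. Trophoblast products were present in the discs too: IFNT2, an interferon tau gene, measured 491 to 2363 CPM in the discs (median 1404) and 1916 to 4749 CPM in extraembryonic tissue (median 2919), and KRT18, a keratin of simple epithelia, 3851 to 8246 CPM in the discs (median 5749) and 7280.2 to 17656 CPM in extraembryonic tissue (median 8335). The amount of trophoblast left on the dissected discs cannot be told from these values, and its part in the small folds of genes higher in extraembryonic tissue was not tested. Reads of IFNT2 may be shared with other near-identical interferon tau genes.

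Components of fibroblast growth factor (FGF) signalling were higher in the disc, from receptor to target and inhibitor genes. Of the 27 genes listed, 22 were in the table and 15 were tested. In extraembryonic tissue 12 were lower, 9 of them past 2-fold, and 0 higher, with a median log2 fold change of -1.76. Among all genes tested 21.7% were lower, 5.91% past 2-fold, and 17.0% higher. The ligand gene FGF8 was too sparse to test, with 49 reads over the discs and 0 over the extraembryonic libraries, so that its pooled disc level was at least 48.3-fold higher. The receptor gene FGFR1 (chr27:33250533-33291989, UMD3.1, as are all positions given here) measured 28.3 to 223 CPM in the discs (median 171) and 5.48 to 25.6 CPM in extraembryonic tissue (median 9.73) (log2 fold change -3.82, SE 0.30, adjusted p = 2.02e-07). ETV5 (chr1:81725702-81784999), an ETS factor switched on by FGF through ERK, measured 18.1 to 91.1 CPM in the discs (median 68.9) and 2.18 to 8.40 CPM in extraembryonic tissue (median 3.77) (log2 fold change -3.91, SE 0.24, adjusted p = 1.60e-08). Neither gene's groups overlapped, and in both the lowest disc was that of cow 66 embryo 1. ETV4, its close relative, and SPRY2, a feedback inhibitor of the pathway, were also lower in 10 of 10 pairs with no overlap, at log2 fold changes of -3.08 (SE 0.28) and -2.53 (SE 0.23).

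More WNT genes were called lower than higher in extraembryonic tissue. Of the 51 genes listed, 47 were in the table and 25 were tested; 14 were lower in extraembryonic tissue, 10 past 2-fold, and 2 were higher, with a median of -1.39. Among secreted modulators, SFRP1 (chr27:35900361-35943920), a WNT-binding antagonist, measured 27.2 to 116 CPM in the discs (median 74.7) and 0 to 1.21 CPM in extraembryonic tissue (median 0.275) (log2 fold change -7.12, SE 0.34, adjusted p = 1.24e-09). DKK3, of the dickkopf family, measured 3.15 to 24.5 CPM in the discs (median 11.1) and 0 to 0.955 CPM in extraembryonic tissue (median 0.0443) (log2 fold change -6.39, SE 0.44, adjusted p = 5.63e-08). RSPO3, a secreted enhancer of WNT signals, was lower in 10 of 10 pairs (log2 fold change -3.11, SE 0.27, adjusted p = 5.54e-07), as was the receptor gene FZD2 (log2 fold change -3.56, SE 0.24, adjusted p = 4.79e-08). The groups of these 4 genes did not overlap. On the other side stood the ligand gene WNT6 (23.8 to 52.1 CPM in the discs (median 33.9) and 40.5 to 68.1 CPM in extraembryonic tissue (median 47.0); log2 fold change 0.52, SE 0.12, adjusted p = 0.00263) and the receptor gene FZD10 (24.3 to 53.6 CPM in the discs (median 48.7) and 43.7 to 90.0 CPM in extraembryonic tissue (median 59.9); log2 fold change 0.45, SE 0.10, adjusted p = 0.00317). Their groups overlapped, they were higher in 9 and 10 of 10 pairs, and neither passed the threshold when scaled by library size alone (adjusted p = 0.0507 and 0.0704).

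In the NODAL, BMP and TGFB family the disc was higher in ligands, transducers and targets. Of the 48 genes listed, 40 were in the table and 27 were tested; 20 were lower in extraembryonic tissue, 11 past 2-fold, and 1 was higher (median -1.21). The ligand gene BMP2 (chr13:49550049-49561303) measured 11.02 to 138 CPM in the discs (median 74.5) and 0.625 to 14.6 CPM in extraembryonic tissue (median 2.82) (log2 fold change -4.31, SE 0.31, adjusted p = 8.40e-08). FOXH1, the DNA-binding partner of SMADs under NODAL, measured 7.87 to 62.8 CPM in the discs (median 40.4) and 0.709 to 6.65 CPM in extraembryonic tissue (median 1.80) (log2 fold change -4.38, SE 0.30, adjusted p = 5.63e-08). The groups of BMP2 overlapped through the disc of cow 66 embryo 1, and those of FOXH1 did not. ID1, a direct BMP target that blocks basic helix-loop-helix factors, measured 25.2 to 106 CPM in the discs (median 72.3) and 0.906 to 7.62 CPM in extraembryonic tissue (median 2.20) (log2 fold change -4.59, SE 0.28, adjusted p = 1.29e-08). SMAD6, the inhibitory SMAD that BMP induces, was lower in 10 of 10 pairs (log2 fold change -4.89, SE 0.35, adjusted p = 9.61e-08). FSTL3, which binds and neutralises activin, was the member called higher, in 8 of 10 pairs (log2 fold change 0.76, SE 0.21, adjusted p = 0.00887).

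**Figure D2:**
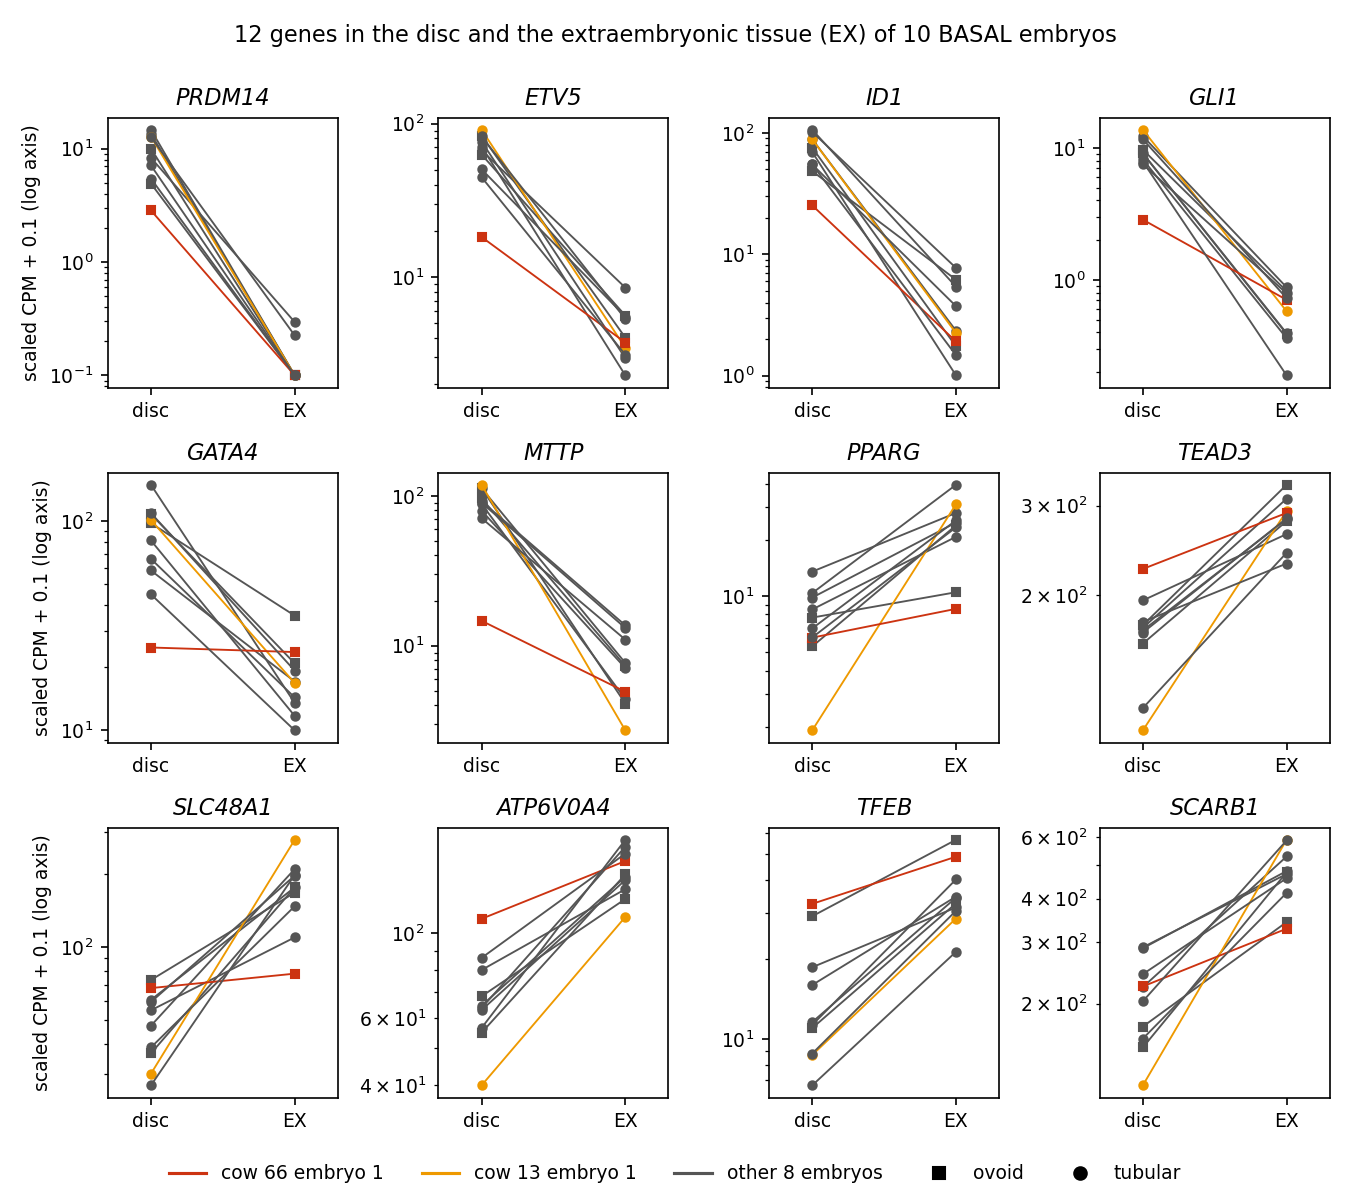
Scaled CPM plus 0.1 (log axis) of 12 genes in the disc and the extraembryonic tissue (EX) of each embryo, joined by a line, with squares for ovoid and circles for tubular embryos. PRDM14, ETV5, ID1, GLI1, GATA4 and MTTP fall from disc to EX, least in cow 66 embryo 1 for GATA4, ETV5, GLI1 and MTTP, and the 6 genes in the other panels (PPARG, TEAD3, SLC48A1, ATP6V0A4, TFEB and SCARB1) rise in 10 of 10 pairs by smaller steps.

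Components of the Hedgehog route were higher in the disc from ligand to effector. Of the 33 Hedgehog and Notch genes listed, 32 were in the table and 15 were tested; 8 were lower and 1 was higher in extraembryonic tissue, with a median of -0.73, and the 4 lowest p-values among the former belonged to the Hedgehog route. The ligand gene IHH (chr2:107722667-107728939) measured 8.26 to 83.4 CPM in the discs (median 63.6) and 1.29 to 10.7 CPM in extraembryonic tissue (median 3.89) (log2 fold change -3.75, SE 0.34, adjusted p = 1.02e-06). SMO, which relays the signal across the membrane, measured 10.2 to 88.4 CPM in the discs (median 50.5) and 1.42 to 6.65 CPM in extraembryonic tissue (median 3.36) (log2 fold change -3.95, SE 0.32, adjusted p = 3.30e-07). GLI1 (chr5:56321394-56331773), both a target and an effector, measured 2.75 to 13.6 CPM in the discs (median 8.97) and 0.0886 to 0.777 CPM in extraembryonic tissue (median 0.541) (log2 fold change -4.24, SE 0.28, adjusted p = 3.60e-08). Groups overlapped for IHH and not for SMO, GLI1 or the further effector gene GLI2 (log2 fold change -6.01, SE 0.42). HEYL, of the HES and HEY repressors that Notch induces, was higher in extraembryonic tissue in 8 of 10 pairs (log2 fold change 0.84, SE 0.29, adjusted p = 0.0316), a call lost by library size alone and with cow 07 embryo 1, cow 12 embryo 1 or 2, or cow 813 embryo 1 or 4 left out (adjusted p 0.0553 to 0.0784).

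Ephrins, semaphorins and their receptors, which guide moving cells and axons, were mostly higher in the disc. Of the 46 genes listed, 44 were in the table and 23 were tested; 19 were lower and 1 was higher (median -1.06). The ephrin ligand gene EFNA2 measured 3.20 to 7.70 CPM in the discs (median 5.44) and 0.289 to 1.91 CPM in extraembryonic tissue (median 0.602) (log2 fold change -2.90, SE 0.26, adjusted p = 8.30e-07), and the receptor gene EPHB4 10.6 to 39.3 CPM in the discs (median 31.1) and 0.716 to 6.95 CPM in extraembryonic tissue (median 3.50) (log2 fold change -3.21, SE 0.36, adjusted p = 9.12e-06). Groups did not overlap for these or for the semaphorin receptor genes PLXND1 (log2 fold change -2.30) and NRP2 (-4.98). SEMA3F, a secreted semaphorin, was the member called higher, by a small step (log2 fold change 0.29, SE 0.10, adjusted p = 0.0419), a call lost by library size alone and with any embryo but cow 07 embryo 2 and cow 13 embryo 1 left out (adjusted p 0.0546 to 0.110), with all 12 pairs (0.0788) and without the block for embryo (0.0510).

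For retinoic acid, a carrier and a receptor were lower and the degrading enzyme higher in extraembryonic tissue. Of the 24 genes listed, 24 were in the table and 14 were tested; 8 were lower and 1 was higher (median -1.22). RARG, a nuclear receptor for retinoic acid, measured 10.2 to 30.4 CPM in the discs (median 22.0) and 0.393 to 3.02 CPM in extraembryonic tissue (median 1.59) (log2 fold change -4.08, SE 0.29, adjusted p = 7.72e-08). CRABP2, which carries retinoic acid to the nucleus, measured 14.3 to 53.5 CPM in the discs (median 32.6) and 0.609 to 13.3 CPM in extraembryonic tissue (median 4.01) (log2 fold change -3.01, SE 0.30, adjusted p = 2.53e-06). Neither overlapped. The retinol dehydrogenase gene DHRS9 was lower in 10 of 10 pairs (log2 fold change -2.61, SE 0.22, adjusted p = 4.28e-07). CYP26A1, which breaks retinoic acid down, was higher in 9 of 10 pairs (5.76 to 44.1 CPM in the discs (median 29.5) and 20.4 to 78.9 CPM in extraembryonic tissue (median 42.2); log2 fold change 0.73, SE 0.16, adjusted p = 0.00258), a call lost without the block for embryo (adjusted p = 0.0841).

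In the insulin-like growth factor axis the binding proteins differed most. Of the 19 genes listed, 17 were in the table and 11 were tested; 7 were lower and 1 was higher in extraembryonic tissue (median -1.23). IGFBP2 (chr2:105338357-105367369) measured 39.4 to 179 CPM in the discs (median 136) and 0.907 to 7.52 CPM in extraembryonic tissue (median 3.03) (log2 fold change -5.32, SE 0.24, adjusted p = 8.71e-10), and IGFBP4 11.02 to 107 CPM in the discs (median 63.1) and 0.239 to 2.42 CPM in extraembryonic tissue (median 0.719) (log2 fold change -6.00, SE 0.41, adjusted p = 5.38e-08). Both encode secreted proteins that hold the growth factors, and neither gene's groups overlapped. The ligand gene IGF2, which is imprinted, was lower in 9 of 10 pairs (5.51 to 50.5 CPM in the discs (median 34.0) and 0.443 to 13.0 CPM in extraembryonic tissue (median 4.99); log2 fold change -2.74, SE 0.37, adjusted p = 5.15e-05). The RNA-binding protein genes IGF2BP2 and IGF2BP1 moved apart: the former had a log2 fold change of -4.27 (adjusted p = 2.41e-06) and the latter, at 202 to 294 CPM in the discs (median 248) and 231 to 380.2 CPM in extraembryonic tissue (median 321), of 0.32 (adjusted p = 0.00858), a call lost by library size alone (adjusted p = 0.265) and with all 12 pairs (0.0675).

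The matrix under and around cells was higher in the disc. Of the 27 basement membrane genes listed, 27 were in the table and 16 were tested, of which 12 were lower and 0 higher in extraembryonic tissue (median -0.87). Of the 26 genes listed for mesenchyme and its matrix, 26 were in the table and 8 were tested, and all 8 were lower (median -2.65). Members seen only in discs passed the filter only where they were high, so this count partly follows from the filter. TGFBI, a secreted adhesion protein, measured 9.05 to 228 CPM in the discs (median 90.7) and 0 to 0.867 CPM in extraembryonic tissue (median 0.0435) (log2 fold change -9.91, SE 0.29, adjusted p = 1.11e-11). FREM2, a basement membrane protein of embryonic epithelia, measured 8.66 to 39.7 CPM in the discs (median 30.5) and 0 to 4.52 CPM in extraembryonic tissue (median 0.368) (log2 fold change -5.34, SE 0.49, adjusted p = 1.05e-06). The extraembryonic libraries together held 7 reads of TGFBI against 3566 in the discs, and neither gene's groups overlapped. COL4A5, a chain of type IV collagen, and LAMB2, a laminin chain, were lower in 9 of 10 pairs each, at -2.93 (adjusted p = 1.84e-05) and -1.65 (adjusted p = 4.45e-04). Of 9 integrin genes tested, 6 were lower and 0 higher, among them ITGB4, a partner in hemidesmosomes (log2 fold change -2.46, SE 0.25, adjusted p = 3.84e-06), and ITGB1, the most shared beta chain (410.1 to 718 CPM in the discs (median 587) and 185 to 557 CPM in extraembryonic tissue (median 457); log2 fold change -0.53, SE 0.14, adjusted p = 0.00925). CDH2, the cadherin of mesenchyme and neural tissue, was lower in 9 of 10 pairs (log2 fold change -2.50, SE 0.26, adjusted p = 4.31e-06), and the matrix protease gene MMP14 in 10 (log2 fold change -2.81, SE 0.29, adjusted p = 3.18e-06).

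Epithelial junction genes were mostly shared or higher in extraembryonic tissue. Of the 40 genes listed, 38 were in the table and 33 were tested; 14 were higher and 4 lower (median 0.26), or 8 higher and 5 lower scaled by library size alone. CLDN4, a tight-junction claudin, measured 327 to 1071 CPM in the discs (median 639.5) and 834 to 1453 CPM in extraembryonic tissue (median 1029.9) (log2 fold change 0.81, SE 0.12, adjusted p = 1.40e-04). TJP3, a tight-junction scaffold, and PKP3, a desmosomal plaque protein, were higher in 10 of 10 pairs, at 0.78 (adjusted p = 3.96e-04) and 0.63 (adjusted p = 4.22e-04). The members called lower included GJA1, the gap-junction connexin 43 (48.01 to 311 CPM in the discs (median 239) and 16.9 to 42.5 CPM in extraembryonic tissue (median 23.8); log2 fold change -2.97, SE 0.26, adjusted p = 7.52e-07), and CDH3, P-cadherin (log2 fold change -2.59, SE 0.29, adjusted p = 8.36e-06). Groups overlapped for CLDN4 and not for GJA1 or CDH3. CDH1, E-cadherin, was read in both tissues and was lower in extraembryonic tissue by a small step (309 to 472 CPM in the discs (median 363) and 91.6 to 387 CPM in extraembryonic tissue (median 290.3); log2 fold change -0.51, SE 0.17, adjusted p = 0.0301), a call lost with cow 07 embryo 2 or cow 12 embryo 1 or 2 left out (adjusted p 0.0517 to 0.0756) and without the block for embryo (0.0511).

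Trophectoderm factors were not uniform. Of the 25 genes listed, 24 were in the table and 21 were tested. In extraembryonic tissue 11 were higher and 4 lower (median 0.39), and 9 and 4 when scaled by library size alone. Over all genes tested 17.0% were higher and 21.7% lower, so the count of lower members lies near the background. TEAD3 (chr23:9398810-9422609), a partner of YAP in trophoblast, measured 108 to 225 CPM in the discs (median 171) and 231 to 329.6 CPM in extraembryonic tissue (median 283) (log2 fold change 0.76, SE 0.10, adjusted p = 5.56e-05). Its groups did not overlap. PPARG, a nuclear receptor for fatty acids, measured 1.81 to 13.4 CPM in the discs (median 7.11) and 8.46 to 39.4 CPM in extraembryonic tissue (median 24.3) (log2 fold change 1.62, SE 0.24, adjusted p = 1.29e-04), and ETS2, an activator of interferon tau genes, 31.3 to 161 CPM in the discs (median 67.7) and 75.2 to 283 CPM in extraembryonic tissue (median 121) (log2 fold change 0.88, SE 0.12, adjusted p = 4.57e-05). Both were higher in 10 of 10 pairs with overlapping groups. Members of the grainyhead family differed in direction: GRHL1 (log2 fold change 0.60, SE 0.09, adjusted p = 1.27e-04) was higher and GRHL2 (log2 fold change -1.13, SE 0.23, adjusted p = 0.00133) lower. GRHL3, outside the list, was higher in 10 of 10 pairs (log2 fold change 1.29, SE 0.14, adjusted p = 5.90e-06). GATA2, a trophoblast factor, did not pass the test (log2 fold change 0.03, SE 0.12, adjusted p = 0.868), nor did ELF5 (log2 fold change 0.20, SE 0.27, adjusted p = 0.593). The members called lower also included ID2 (94.8 to 189 CPM in the discs (median 139) and 23.3 to 68.5 CPM in extraembryonic tissue (median 40.1); log2 fold change -1.83, SE 0.17, adjusted p = 1.04e-06), an inhibitor of basic helix-loop-helix factors, and HAND1, such a factor of trophoblast and mesoderm (log2 fold change -5.44, SE 0.51, adjusted p = 1.24e-06). Of the trophoblast products, IFNT2 (log2 fold change 1.27, adjusted p = 3.00e-04) and CYP17A1, an enzyme of steroid synthesis (1.01, adjusted p = 0.0151), were called higher, each in 10 of 10 pairs.

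Of the 16 genes higher in extraembryonic tissue past 2-fold, 2 had groups that did not overlap. TNFRSF9, a receptor of the tumour necrosis factor family, measured 0 to 4.72 CPM in the discs (median 1.03) and 0 to 36.1 CPM in extraembryonic tissue (median 8.82) (log2 fold change 2.49, SE 0.41, adjusted p = 3.82e-04). PINLYP, an inhibitor of phospholipase A2, measured 74.3 to 476 CPM in the discs (median 215) and 119 to 2412 CPM in extraembryonic tissue (median 860.1) (log2 fold change 2.08, SE 0.31, adjusted p = 1.18e-04). SLC10A1, a bile acid transporter of liver, measured 64.4 to 208 CPM in the discs (median 142) and 135 to 1005 CPM in extraembryonic tissue (median 445) (log2 fold change 1.72, SE 0.27, adjusted p = 1.75e-04). All 3 overlapped between tissues. SLC48A1, which carries heme across endosomal membranes, was steadier (26.8 to 73.1 CPM in the discs (median 51.0) and 77.7 to 278 CPM in extraembryonic tissue (median 177); log2 fold change 1.80, SE 0.24, adjusted p = 4.00e-05), and it was among those 2 with ACOT8, a peroxisomal thioesterase (51.2 to 154 CPM in the discs (median 88.4) and 187 to 446 CPM in extraembryonic tissue (median 242); log2 fold change 1.47, SE 0.18, adjusted p = 2.25e-05). SLC27A6, of the fatty acid transport proteins, measured 6.69 to 111 CPM in the discs (median 18.2) and 4.53 to 585 CPM in extraembryonic tissue (median 118) (log2 fold change 2.31, SE 0.37, adjusted p = 2.23e-04), and TM4SF1, a surface protein of the tetraspanin kind, 0.394 to 20.0 CPM in the discs (median 3.42) and 0.289 to 89.2 CPM in extraembryonic tissue (median 37.4) (log2 fold change 2.43, SE 0.35, adjusted p = 8.13e-05). Each was higher in 9 of 10 pairs, with overlapping groups. RCAN1, an inhibitor of calcineurin, and ENDOU, an endoribonuclease, differed on the log2 scale by 1.76 (SE 0.27) and 1.65 (SE 0.24), the latter not called without the block for embryo (adjusted p = 0.0873).

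Genes of the sodium pump and of water channels differed by family member. Of the 34 genes listed, 29 were in the table and 17 were tested. In extraembryonic tissue 4 were higher and 7 lower, against 17.0% and 21.7% of all genes tested. Of the pump's beta chains, ATP1B3 was higher in 9 of 10 pairs (482 to 1211 CPM in the discs (median 824) and 966 to 1491 CPM in extraembryonic tissue (median 1319); log2 fold change 0.66, SE 0.13, adjusted p = 0.00103) and ATP1B1 lower in 10 (17.3 to 98.2 CPM in the discs (median 39.1) and 7.52 to 52.5 CPM in extraembryonic tissue (median 15.4); log2 fold change -1.28, SE 0.19, adjusted p = 1.07e-04). The regulatory FXYD6 had a log2 fold change of -3.50 (adjusted p = 4.41e-07). Of the water channels, AQP11 was higher in 10 of 10 pairs (log2 fold change 1.24, SE 0.28, adjusted p = 0.00289) and AQP3 lower in 9 (log2 fold change -2.12, SE 0.30, adjusted p = 7.36e-05). The pump moves the sodium that draws fluid into the cavity of the conceptus.

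Single genes of glucose handling went both ways, and amino acid carriers were mostly lower in extraembryonic tissue. SLC2A1, the basal glucose carrier, and SLC16A1, a lactate carrier, were lower in 9 and 10 of 10 pairs, at -0.59 (adjusted p = 5.48e-04) and -0.51 (adjusted p = 1.77e-04). HK1, which traps glucose in the cell, measured 49.6 to 139 CPM in the discs (median 113) and 18.1 to 44.1 CPM in extraembryonic tissue (median 28.8) (log2 fold change -1.86, SE 0.18, adjusted p = 1.99e-06). Its groups did not overlap. PFKFB3, which drives flux through phosphofructokinase, went the other way in 10 of 10 pairs (30.7 to 148 CPM in the discs (median 59.9) and 68.2 to 299.8 CPM in extraembryonic tissue (median 131); log2 fold change 0.85, SE 0.12, adjusted p = 9.03e-05). Of 17 glycolysis genes tested 2 were higher and 5 lower, with a median of 0.02. Over all genes tested 17.0% were higher and 21.7% lower, so these counts lie near the background. By library size alone the median turned to -0.18, against -0.20 for all genes tested, and 1 member was higher and 8 lower. Of 16 amino acid carriers tested 1 was higher and 10 were lower (median -0.69). SLC7A8 measured 257 to 1094 CPM in the discs (median 853) and 105 to 259 CPM in extraembryonic tissue (median 168) (log2 fold change -2.08, SE 0.23, adjusted p = 8.45e-06), and its heavy chain SLC3A2 was lower in 9 of 10 pairs (log2 fold change -1.12, SE 0.14, adjusted p = 2.68e-05), while SLC7A5, another light chain of SLC3A2, was the member called higher (log2 fold change 0.54, SE 0.10, adjusted p = 8.21e-04). SLC7A3, a carrier of cationic amino acids, had 0 extraembryonic reads against 1513 in discs, at least 1491-fold higher in the pooled discs.

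Cholesterol synthesis was lower in extraembryonic tissue along most of the route and by modest steps. Of the 24 genes listed, 22 were in the table and 21 were tested; 17 were lower, 0 past 2-fold, and 0 higher (median -0.74). DHCR7, the last enzyme, measured 131 to 307 CPM in the discs (median 291) and 111 to 162 CPM in extraembryonic tissue (median 135) (log2 fold change -0.95, SE 0.13, adjusted p = 3.90e-05). Genes of fatty acid uptake and storage went both ways, with 12 of 27 tested higher and 8 lower (8 and 9 by library size alone). Among all genes tested 17.0% were higher and 21.7% lower. SCARB1, a receptor for high-density lipoprotein, measured 116 to 290.0 CPM in the discs (median 213) and 328 to 590.0 CPM in extraembryonic tissue (median 473) (log2 fold change 1.19, SE 0.15, adjusted p = 2.74e-05), and AGPAT3, which builds phosphatidic acid, 75.2 to 132 CPM in the discs (median 94.9) and 137 to 306 CPM in extraembryonic tissue (median 208) (log2 fold change 1.14, SE 0.13, adjusted p = 8.45e-06). Neither overlapped. Lower in 10 of 10 pairs without overlap were CIDEB, a protein of lipid droplets and lipoproteins (log2 fold change -4.14, SE 0.31, adjusted p = 1.19e-07), and DGAT2, which makes triglyceride (log2 fold change -4.26, SE 0.46, adjusted p = 6.26e-06). LPL, the lipase that frees fatty acids from lipoproteins, was lower in 10 of 10 pairs with overlap (log2 fold change -2.80, SE 0.40, adjusted p = 8.72e-05).

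Lysosomal genes went both ways. Of the 58 genes listed, 51 were in the table and 45 were tested, of which 17 were higher and 11 lower. Among all genes tested 17.0% were higher and 21.7% lower, so the count of lower members lies near the background. The list's median of 0.19 turned to -0.01 when scaled by library size alone, where 11 were higher and 13 lower. That scaling moved the median of all genes tested to -0.20. ATP6V0A4 (chr4:103199965-103246668), a subunit of the vacuolar proton pump, had the lowest p of all genes higher in extraembryonic tissue (39.9 to 109 CPM in the discs (median 64.1) and 110.3 to 176 CPM in extraembryonic tissue (median 142); log2 fold change 1.10, SE 0.12, adjusted p = 4.22e-06). TFEB, the transcription factor that switches on lysosomal genes, measured 6.59 to 32.3 CPM in the discs (median 11.3) and 21.2 to 56.4 CPM in extraembryonic tissue (median 33.2) (log2 fold change 1.32, SE 0.15, adjusted p = 9.07e-06). Groups did not overlap for ATP6V0A4 or for a further pump gene, ATP6V1B2 (log2 fold change 0.67, SE 0.11, adjusted p = 1.92e-04), and overlapped for TFEB. LIPA, which splits cholesteryl esters, measured 17.7 to 149 CPM in the discs (median 72.5) and 5.14 to 21.4 CPM in extraembryonic tissue (median 13.3) (log2 fold change -2.51, SE 0.18, adjusted p = 7.33e-08), and ARSB, a sulfatase, was lower in 10 of 10 pairs (log2 fold change -1.24, SE 0.15, adjusted p = 1.24e-05).

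Many genes of the secretory route were higher in extraembryonic tissue, and 0 were lower. Of the 53 genes listed, 49 were in the table and 48 were tested; 27 were higher, 0 past 2-fold (median 0.32), and by library size alone 16 were higher and 1 lower. SEC23B, a coat protein of vesicles leaving the endoplasmic reticulum, measured 152 to 208 CPM in the discs (median 180.0) and 224 to 308 CPM in extraembryonic tissue (median 257) (log2 fold change 0.54, SE 0.08, adjusted p = 1.36e-04). SSR1, part of the translocon, measured 369 to 536 CPM in the discs (median 401) and 560.1 to 779.9 CPM in extraembryonic tissue (median 634) (log2 fold change 0.57, SE 0.09, adjusted p = 1.92e-04). Neither overlapped. The cargo receptors LMAN1 and TMED9 were higher in 10 of 10 pairs, at 0.65 (adjusted p = 1.95e-04) and 0.49 (adjusted p = 4.93e-04).

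Some nuclear genes of the mitochondrion were higher by similar small steps, and most did not pass the test. Of 54 genes of oxidative phosphorylation tested, 24 were higher and 0 lower (median 0.33), and of 69 of the mitochondrial ribosome 30 were higher and 1 lower (median 0.29). By library size alone these counts were 11 and 3, and 13 and 1. ATP5G1, a subunit of the ATP synthase ring, measured 71.7 to 146 CPM in the discs (median 96.8) and 109 to 434 CPM in extraembryonic tissue (median 191) (log2 fold change 0.95, SE 0.18, adjusted p = 8.92e-04). MRPS36 measured 17.2 to 32.7 CPM in the discs (median 24.3) and 35.1 to 51.6 CPM in extraembryonic tissue (median 42.5) (log2 fold change 0.72, SE 0.11, adjusted p = 1.12e-04). Groups overlapped for the former and not for the latter. The mitochondrial share of exon reads averaged 6.66% ± 5.49 in extraembryonic tissue and 4.28% ± 1.32 in discs (SD, n = 10). It was higher in 7 of 10 pairs (exact sign-flip p = 0.105, two-sided), a difference of 2.39 points with cow 13 embryo 1 and 0.858 points without it.

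Regulators of DNA methylation and chromatin held a few large differences among many small ones. Of the 27 genes listed, 25 were in the table and 25 were tested. In extraembryonic tissue 9 were lower and 2 higher (median -0.18), the latter 0 by library size alone. The shares over all genes tested were 21.7% lower and 17.0% higher. JARID2, a partner of Polycomb repressive complex PRC2, measured 42.1 to 215 CPM in the discs (median 153) and 8.95 to 23.1 CPM in extraembryonic tissue (median 10.01) (log2 fold change -3.64, SE 0.26, adjusted p = 7.11e-08). DNMT3A, a DNA methyltransferase that sets new marks, measured 31.1 to 77.2 CPM in the discs (median 64.7) and 6.92 to 20.3 CPM in extraembryonic tissue (median 13.2) (log2 fold change -2.24, SE 0.20, adjusted p = 7.42e-07). HDAC2, a histone deacetylase, measured 71.2 to 158 CPM in the discs (median 135) and 30.5 to 62.7 CPM in extraembryonic tissue (median 53.0) (log2 fold change -1.30, SE 0.10, adjusted p = 2.00e-07). None of the 3 overlapped. Of 12 imprinted genes tested 9 were lower and 1 higher, against 21.7% and 17.0% of all genes tested. Among the 9 was NNAT (147 to 688 CPM in the discs (median 515) and 0 to 1.19 CPM in extraembryonic tissue (median 0.223)), by which discs were kept, so its place in the count is no result. The member called higher was ASCL2, a factor of trophoblast (79.9 to 295 CPM in the discs (median 112) and 164 to 731 CPM in extraembryonic tissue (median 305), log2 fold change 1.20, SE 0.21, adjusted p = 5.16e-04). NDN, an imprinted growth suppressor, was lower in 10 of 10 pairs (log2 fold change -3.13, SE 0.34, adjusted p = 6.37e-06).

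Cell cycle genes differed by member. CDK6, a G1 kinase, measured 1.98 to 7.17 CPM in the discs (median 4.68) and 8.13 to 17.5 CPM in extraembryonic tissue (median 10.9) (log2 fold change 1.32, SE 0.16, adjusted p = 1.97e-05), and its cyclin gene CCND2 14.4 to 82.2 CPM in the discs (median 38.0) and 63.9 to 139 CPM in extraembryonic tissue (median 99.9) (log2 fold change 1.19, SE 0.15, adjusted p = 3.07e-05). Groups did not overlap for CDK6. TOP2A, which untangles DNA before mitosis, was lower in 10 of 10 pairs (278 to 653 CPM in the discs (median 472) and 83.8 to 319.8 CPM in extraembryonic tissue (median 236); log2 fold change -1.10, SE 0.19, adjusted p = 4.88e-04). Of 33 members tested 11 were higher and 3 lower, against 17.0% and 21.7% of all genes tested. The median of 0.15 turned to -0.05 by library size alone, where 4 were higher and 8 lower and the median of all genes tested was -0.20.

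Antioxidant genes went both ways, with 9 of 33 tested higher and 6 lower, near the 17.0% and 21.7% of all genes tested. By library size alone 5 were higher and 10 lower. Their median turned from 0.05 to -0.14 there, against -0.20 for all genes tested. CAT, catalase, measured 195 to 359 CPM in the discs (median 311) and 328 to 759.8 CPM in extraembryonic tissue (median 513) (log2 fold change 0.75, SE 0.11, adjusted p = 1.15e-04), and the peroxiredoxin gene PRDX5 was higher in 10 of 10 pairs (log2 fold change 0.84, SE 0.14, adjusted p = 3.89e-04). MGST3, a microsomal glutathione transferase, measured 7.08 to 35.2 CPM in the discs (median 23.2) and 0.0984 to 2.07 CPM in extraembryonic tissue (median 0.87) (log2 fold change -4.91, SE 0.35, adjusted p = 9.21e-08), and GPX8, a peroxidase of the endoplasmic reticulum, was lower in 10 of 10 pairs (log2 fold change -4.14, SE 0.31, adjusted p = 1.28e-07). Groups did not overlap for MGST3 and GPX8 and overlapped for CAT. SLCO2A1, the prostaglandin carrier, measured 0.33 to 19.7 CPM in the discs (median 8.92) and 7.52 to 125 CPM in extraembryonic tissue (median 34.96) (log2 fold change 2.01, SE 0.33, adjusted p = 2.51e-04). It was higher in 10 of 10 pairs.

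**Figure D3:**
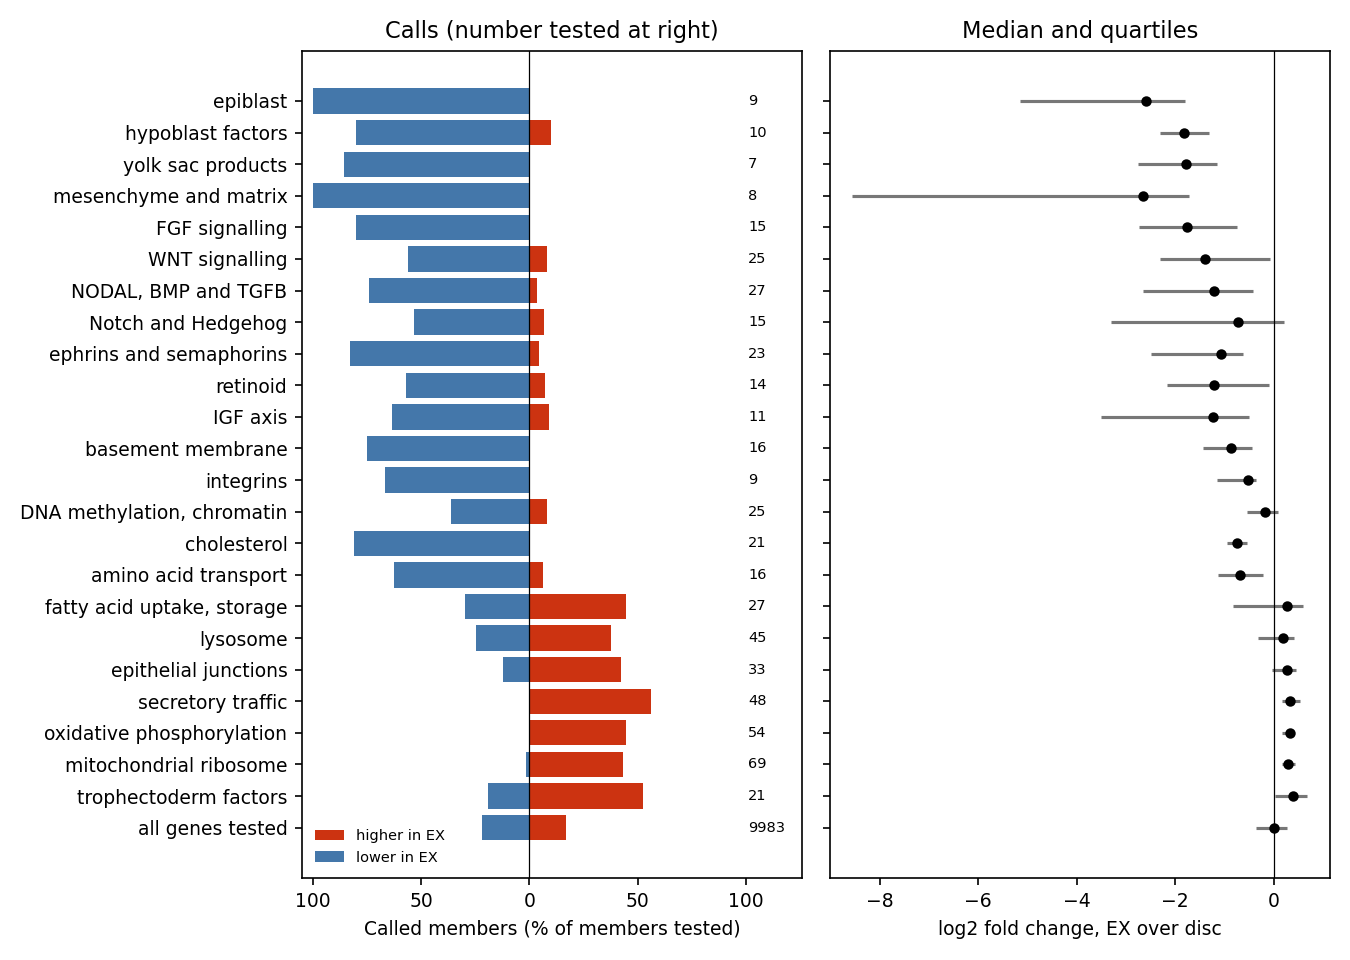
At left, the percent of tested members of 23 gene lists called higher (red) or lower (blue) in extraembryonic tissue (EX), with the number tested at the right edge; at right, the median (point) and quartiles (line) of their log2 fold changes. Signalling and matrix lists lie to the left of the last row, all genes tested, whose median is 0.00, and the lists of epithelial junctions, secretory traffic, the mitochondrial ribosome and oxidative phosphorylation lie at medians of 0.26 to 0.33.

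Reads of the X chromosome differed by tissue and by sex. The X-linked share was taken of exon reads without those of mitochondrial genes. Genes on X took 2.57% ± 0.325 of these reads in extraembryonic tissue and 2.84% ± 0.464 in discs (SD, n = 10). The difference of -0.273 points was found in 10 of 10 pairs (exact sign-flip p = 0.00195, two-sided, the smallest 10 pairs allow). Female discs lay at 3.00% to 3.44% and male discs at 2.24% to 2.78%. Female extraembryonic libraries lay at 2.80% to 2.91% and male ones at 2.16% to 2.67%. The sexes did not overlap in either tissue (exact permutation p = 0.00794 each, two-sided, the smallest that 5 against 5 allow). With uniquely placed reads the extraembryonic sexes overlapped, with the female of cow 13 embryo 1 at 2.39% and the male of cow 07 embryo 2 at 2.41% (exact permutation p = 0.0159, two-sided). The share fell from disc to extraembryonic tissue with an average change of -0.402 points in females and -0.144 points in males, a difference of -0.258 points (exact permutation p = 0.0238, two-sided, a test added after the values were seen). Across 325 X-linked genes tested, the median log2 ratio of females over males was 0.40 in discs and 0.26 in extraembryonic tissue, and 88.6% and 71.7% of these genes were above 0. For autosomal genes the medians were -0.0020 and -0.016. Of the X-linked genes 30.2% were called lower in extraembryonic tissue, against 21.4% of autosomal genes, and 10.2% higher, against 17.2%. The PLS3 gene, on X, which encodes an actin-bundling plastin, had the lowest p for a tissue difference that varied with sex (interaction log2 -2.43, SE 0.43, adjusted p = 0.671), which did not pass.

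**Figure D4:**
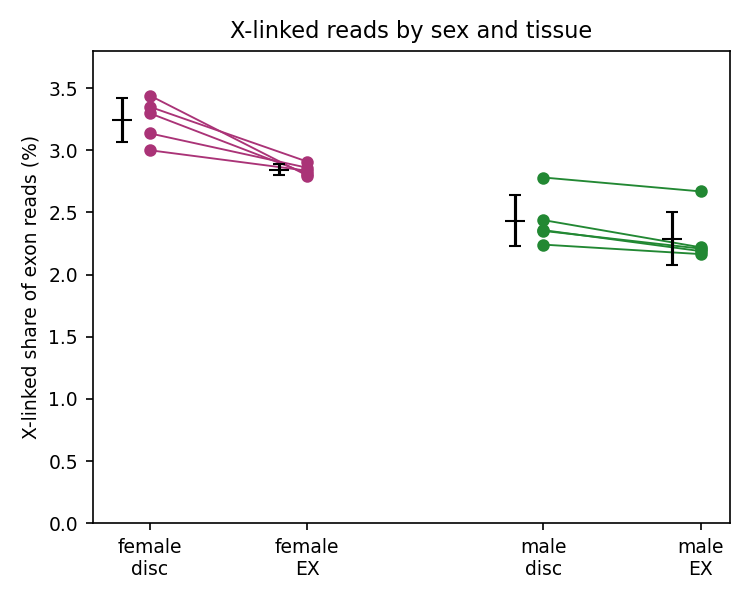
Percent of exon reads on X-linked genes, with mitochondrial reads left out of the total (vertical axis, from 0). Values are for the disc and extraembryonic tissue (EX) of each embryo, joined by a line, for 5 female and 5 male embryos. Bars give the mean and SD. Every line falls. With uniquely and not uniquely placed reads counted together, the females lie above the males in both tissues, from 3.00 to 3.44 in discs and from 2.80 to 2.91 in EX.

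The size of the difference varied between embryos. Among genes at 5 CPM or more in the higher tissue, the disc exceeded extraembryonic tissue by over 2-fold for 583 genes in cow 66 embryo 1, for 1046 to 1822 in 8 embryos and for 3171 in cow 13 embryo 1. Genes over 2-fold the other way numbered 112 in cow 12 embryo 4, 234 to 544 in 8 embryos and 1833 in cow 13 embryo 1. Over 8-fold, the disc was higher for 63 genes in cow 66 embryo 1 and for 318 to 1093 in the others. Cow 66 embryo 1 was the embryo in which the summed mesenchyme and matrix list was higher in extraembryonic tissue (1896 CPM in disc and 3045 CPM in extraembryonic tissue), and in the other 9 it was lower. In cow 66 embryo 1 depth was the most even, with 1.28 times as many reads in extraembryonic tissue as in disc, against 1.69 to 5.57 times in the others, and the part of depth was not tested. Without cow 66 embryo 1, 4692 genes were called and 980 were past 2-fold.

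The tissue difference was not found to depend on sex, shape or maturation medium for any single gene. The interaction with sex gave 0 genes called by edgeR of 9983 (389 at an unadjusted p under 0.05) and 2 by DESeq2, and the interaction with shape gave 0 (395 unadjusted). The 8 HIGH PA pairs, whose oocytes saw 150 µM palmitic acid with the stearic acid, oleic acid and ethanol of BASAL, were then added to the fit. So were the 3 CONTROL pairs, without fatty acids or solvent. For either medium 0 of 10200 genes were called (223 and 652 unadjusted). The CONTROL pairs were all male, tubular and from cow 813, and most HIGH PA pairs were male. That fit held no term for sex, shape or cow with tissue, so their part in the comparison of media was not tested. The median SE of these interactions was 0.31 for sex, 0.34 for shape, 0.28 for HIGH PA and 0.39 for CONTROL on the log2 scale, so differences smaller than about 0.60, 0.66, 0.55 and 0.77 lay within the 95% interval of a typical gene.

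The same genes were then read in the HIGH PA pairs, other embryos fitted alone. There, 798 of 9922 genes tested were higher in extraembryonic tissue (8.04%) and 1248 lower (12.6%), and past 2-fold 13 were higher (0.131%) and 444 lower (4.47%). Of the 590 genes lower past 2-fold in BASAL pairs, 528 were tested, 528 had the same sign and 373 were also past 2-fold, which is 70.6% of the BASAL genes tested there and 84.0% of the HIGH PA list. Of the 1694 genes higher in BASAL pairs, 1682 were tested, 1667 had the same sign and 693 were called (41.2% and 86.8%). Of the 2162 lower, 2054 were tested, 2022 had the same sign and 1144 were called (55.7% and 91.7%). Of the 16 higher past 2-fold, 15 were tested, 15 had the same sign and 6 passed (40% and 46.2%). Some cows carried embryos of both media, and the HIGH PA discs were shallower, from 119116 to 4005676 reads.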

How the data were processed

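Messenger RNA of the disc and the extraembryonic tissue of 10 BASAL embryos was analysed. Per the labels' protocols, RNA was isolated with AllPrep micro (disc) and mini kits and made into TruSeq stranded mRNA libraries, read as 50-base pairs. The authors' deposited table gives, per gene and library, a count of exon reads, of uniquely placed exon reads and of intron reads; per the file headers these are whole reads without scaling. The submitters' processing notes name UMD3.1 as the build, and DESeq2 1.10.1. The aligner and the strand setting of the counting are not given in the sources used here. Of features the table has 24596, 6055 of them without a gene name, and 0 of these were matched to a RefSeq gene on the Ensembl ID. No feature carries the name POU5F1, NANOG, CDX2, GATA6 or XIST, so these genes are not analysed here. Of 190 pairs of libraries 0 had identical counts.

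The members and the 47 gene lists were chosen with earlier results of these data known. Exon counts were tested with edgeR 4.0.16 (quasi-likelihood F test, TMM scaling, default filter by tissue, 9983 genes kept) with embryo as a block, and with glmTreat for a change over 2-fold; p-values were Benjamini-Hochberg adjusted and 0.05 was the threshold. Each SE is the size of the log2 fold change divided by the root of its F. Single values were tested by exact permutation. Both tissues come from the same embryo by their labels. Deviations from the tissue means correlated at a median of 0.291 within embryos (9 of 10 over 0.1) and -0.0272 between embryos. Embryos of a cow had the same recipient, and the labels do not say whether from 1 transfer, so p-values measure the spread between embryos that may not all be independent. Genes named were the 12 of lowest p and of largest change per direction past 2-fold and up to 4 called members per list and direction, with marker lists in full; the text names a part, some named by the rule are not reported here, and FGF8 lies outside it. Folds over a tissue with 0 reads are bounds from 3 pooled reads, and intervals cover counting error only.

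On simulated counts of these libraries with 200 of 9983 genes changed, 29.9% of genes changed 1.5-fold were found, 83.3% at 2-fold and 100% at 4-fold. Of 9683 unchanged genes that passed the filter, 8 were called. The tissue effect was removed and as many genes were raised as lowered, so the simulation does not test scaling in data as one-sided as these. Alternatives were DESeq2 1.42.0, its size factors, limma-voom (limma 3.58.1), no filter, no block, unique reads, thinned counts, pairs or cows left out, all 12 pairs, single sexes and shapes, and single letters. Added after the data were seen were library size alone, pairs without an extraembryonic library marked 2 in its column name, and pairs without cow 66 embryo 1 and cow 13 embryo 1. R 4.3.3, Python 3.11.15 and matplotlib 3.10.9 were used.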

Additional observations from a re-analysis of the deposited data

Results flagged for a closer look

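In 254 groups of 5 or 10 libraries, each a tissue's values of a reported measure, 40 had a highest or lowest value standing apart by Dixon's test at 95%. Chance flags about 1 in 20 groups, and many of these genes vary together, so the flags are no count of separate events. What set them apart was not tested. The extraembryonic library of cow 13 embryo 1 was highest in ACOT8 (446 CPM, next 287), ASCL2 (731 CPM, next 417), ATP5G1 (434 CPM, next 229), DKK3 (0.955 CPM, next 0.289), EFNA2 (1.91 CPM, next 1.15), IHH (10.7 CPM, next 5.77), KRT18 (17656 CPM, next 12015) and PRDX5 (1316 CPM, next 895). The extraembryonic library of cow 813 embryo 3 was highest in DHRS9 (6.69 CPM, next 2.57), FGFR1 (25.6 CPM, next 13.6), FREM2 (4.52 CPM, next 1.06), FXYD6 (5.90 CPM, next 3.42), GPX8 (2.36 CPM, next 0.955), PFKFB3 (299.8 CPM, next 185), SLCO2A1 (125 CPM, next 58.2) and TNFRSF9 (36.1 CPM, next 19.0). The disc of cow 66 embryo 1 was highest in ASCL2 (295 CPM, next 190.2), DAB2 (894 CPM, next 669), ENDOU (123 CPM, next 23.0) and GRHL1 (374 CPM, next 272) and was lowest in ITGB1 (410.1 CPM, next 559.7) and MTTP (14.6 CPM, next 70.8). The extraembryonic library of cow 07 embryo 2 was highest in APOA2 (28.0 CPM, next 10.2), FOXH1 (6.65 CPM, next 2.42), GLI2 (1.16 CPM, next 0.518), HAND1 (12.7 CPM, next 4.98), SMAD6 (1.45 CPM, next 0.609) and TGFBI (0.867 CPM, next 0.129). The extraembryonic library of cow 12 embryo 4 was highest in ETV5 (8.40 CPM, next 5.49), LPL (12.6 CPM, next 4.53) and NRP2 (1.66 CPM, next 0.647). The extraembryonic library of cow 66 embryo 1 was highest in RARG (3.02 CPM, next 1.76) and was lowest in DAB2 (702 CPM, next 1024). The disc of cow 07 embryo 2 was highest in SEMA3F (36.6 CPM, next 28.7). The disc of cow 12 embryo 2 was highest in SLC27A6 (111 CPM, next 41.2). The extraembryonic library of cow 12 embryo 2 was highest in NDN (4.01 CPM, next 2.12). In cow 13 embryo 1 the mitochondrial share of extraembryonic exon reads was 20.9% (next 11.1%), 3171 genes were over 2-fold higher in the disc (next 1822) and 1833 over 2-fold higher in extraembryonic tissue (next 544). The TMM factor of that extraembryonic library was 0.619, against 0.902 to 1.07 in the others, which raises its scaled CPM. The part of scaling in the flags of cow 13 embryo 1 was not tested. Among male extraembryonic libraries that of cow 07 embryo 2 had the highest X-linked share, 2.67% (next 2.22%). The drop in X-linked share from disc to extraembryonic tissue differed between the sexes by -0.258 percentage points (exact permutation p = 0.0238, 5 females and 5 males).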

How the results depend on the processing

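The number of genes called moved from 3856 to 6274 with no filter on low counts, which tested 16509 genes, to 1896 in the 6 pairs of letters A and D, to 1218 in males alone, to 1715 with cow 12 left out and to 2443 with cow 813 left out. Single embryos left out gave 3150 to 4692 (without cow 66 embryo 1). Genes past 2-fold moved from 606 to 1818 with no filter, to 284 with all 12 pairs and 307 with 11 pairs (the disc without NNAT reads put back), to 342 without cow 12, to 283 in males, 978 in females and 991 in tubular embryos alone, to 980 without cow 66 and to 974 without cow 66 embryo 1 and cow 13 embryo 1. With single embryos left out they numbered 504 to 980. Fewer pairs were fitted in the groups alone; otherwise the cause was not tested. In each of these settings more genes past 2-fold were lower than higher in extraembryonic tissue. Without the replicate block for embryo 3558 genes were called and 560 were past 2-fold. The interaction with sex gave 2 genes by DESeq2. The mitochondrial share passed with cow 12 embryo 1 left out (2.92 points, exact p = 0.0234), with single embryos left out in turn it ran from 0.858 to 2.92 points, and it was 0.391 points without libraries marked 2. The intron share in the 4 pairs of letters B and C differed by -1.28 points (exact p = 0.125, the smallest 4 pairs allow). Of 124 called genes named in the text, 0 changed direction in the settings run on them; DESeq2, its size factors and unique reads lost 0 calls, library size alone lost 5, no block lost 4, all 12 pairs lost 2 and kept 100 (the others were not tested in that fit) and single embryos left out lost 3. Depth limited the discs: at their median a single read was a larger step than in extraembryonic tissue, and 49 reads of FGF8 were too few to test.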
